A study of Mus musculus with 10 samples.

Results

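Fbln5, Efemp1 and Ccn1 encode secreted proteins of the extracellular matrix, and their signals were all higher on average in the hypothalamus of old mice than in that of young mice. These 3 genes, each read by 1 probe set, were followed out of 19505 named genes measured with Clariom S Mouse arrays, whose probe sets each read a transcript in 1 colour. They were picked because earlier results of these data showed a difference between the ages, and where a gene has several probe sets the brightest on average was to be used. Their own contrast between ages is therefore given as a description, and nothing is read from any test of it. The hypothalamus of male C57BL/6J mice was sampled at 24 weeks of age (Young, 5 arrays) and at 138 weeks (Old, 5 arrays). No transgene, deletion or treatment is named in the labels, and food and water were freely available in both groups. The labels do not say whether each array is a separate animal, so the spread between arrays may in part be technical.

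Fibulin-5 (Fbln5) and fibulin-3 (Efemp1) belong to the fibulins, secreted glycoproteins built from calcium-binding EGF-like repeats. Fibulin-5 binds elastin and cell-surface integrins and is needed for elastic fibres to form. Fibulin-3 binds the metalloproteinase inhibitor TIMP3. CCN1 (Ccn1, older symbol Cyr61) is a matricellular protein that signals through integrins, and its gene is both an immediate early gene and a target of the transcription factors YAP and TEAD. In brain, Fbln5 is known from vessel walls, Efemp1 from leptomeningeal fibroblasts and Ccn1 from cells that answer growth factors or mechanical load.

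The deposited values fix what can be seen of these genes. Their range, 5.00 to 12.97, is that of log2 array signal, and they are treated as such; the log base is not stated, and every fold depends on it. Of 22206 probe sets, 21741 (97.9%) had the same very small spread over the 10 arrays, a standard deviation (SD) of 1e-05 log2, and are called collapsed here. Such a gene has a level, but no difference between ages can be measured from it. The word varying is kept for the 276 genes (1.42%) whose SD reached 0.01 log2, and all 3 members were among them. Array medians lay between 6.778 and 6.783 log2. In bulk tissue, fewer cells of a type and less RNA per cell cannot be told apart. All 15 listed genes of hypothalamic neurons were measured, among them Sst at a mean of 10.56 log2, and no background call was used.

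Sequence upstream of each gene's start is shown because the 3 signals were higher together, so that the letters which regulators of Ccn1 are known to bind can be looked for in all of them. All 3 genes matched a RefSeq entry of build GRCm38.p6, and the strand shown is that of the gene, 5′ to 3′. Capitals mark matches to any of 5 motifs on either strand. The motif bound by TEAD factors was taken as CATTCC. The half-site of the cyclic AMP response element was taken as TGACG. The motif of AP-1 was taken as TGANTCA. The TATA box was searched as TATAAA. The GC box was searched as GGGCGG. A match on the other strand shows as its reverse complement, such as CCGCCC. Ccn1 lies on chromosome 3 (chr3:145649986-145650235, minus strand). Efemp1 lies on chromosome 11 (chr11:28852955-28853153, plus strand), and its last 51 bases are not shown because another transcript model covers them. Fbln5 lies on chromosome 12 (chr12:101819120-101819369, minus strand, the outer of 2 start sites).
Ccn1: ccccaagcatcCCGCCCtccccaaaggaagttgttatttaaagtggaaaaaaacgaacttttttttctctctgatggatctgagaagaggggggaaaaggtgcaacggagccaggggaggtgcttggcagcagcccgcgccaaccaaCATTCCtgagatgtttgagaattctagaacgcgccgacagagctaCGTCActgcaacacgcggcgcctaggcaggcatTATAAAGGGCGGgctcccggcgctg
Efemp1: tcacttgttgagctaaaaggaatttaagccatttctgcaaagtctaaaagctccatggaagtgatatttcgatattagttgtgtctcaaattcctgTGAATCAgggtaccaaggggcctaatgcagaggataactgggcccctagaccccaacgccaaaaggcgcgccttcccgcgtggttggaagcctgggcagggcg
Fbln5: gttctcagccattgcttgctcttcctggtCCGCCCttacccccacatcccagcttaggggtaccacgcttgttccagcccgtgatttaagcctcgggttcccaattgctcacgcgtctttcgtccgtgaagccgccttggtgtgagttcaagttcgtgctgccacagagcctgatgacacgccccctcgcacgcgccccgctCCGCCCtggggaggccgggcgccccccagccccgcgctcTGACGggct

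The 3 upstream windows shared few of these letters. CATTCC was found in the window of Ccn1, where it began 103 bases before the start, and in neither Efemp1 nor Fbln5; 12.6% of 32851 RefSeq windows of 250 bases held it. TATAAA was likewise found in Ccn1, 25 bases before the start, where it abuts a GC box without overlap, and 12.4% of windows held it. TGANTCA was found in Efemp1, against 6.75% of windows. It began 154 bases before the start at the end of the full window, a distance that includes the 51 bases not shown. TGACG was found in Ccn1 and in both windows of Fbln5, against 17.8% of windows. GGGCGG was found in Ccn1, Efemp1 and the outer window of Fbln5, against 32.7%; its match in Efemp1 lies in the bases not shown. The CArG box, bound by serum response factor, was searched as CCWWWWWWGG, where W is A or T. It was found in none of them, and 1.47% of windows held it. The windows were 54.8% (Ccn1), 53.6% (Efemp1) and 65.2% (Fbln5, outer start) G and C, against a median of 52.4%. A match is a description of letters and no sign of binding.

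Fbln5 had the widest difference of the 3. The Young arrays read 7.44, 7.22, 7.09, 7.0 and 6.87 log2 (Young 1 to 5). The Old arrays read 8.04, 8.37, 7.68, 7.76 and 7.57 log2 (Old 1 to 5). No Old array was as low as any Young array, and the gap from the lowest Old array (Old 5) to the highest Young array (Young 1) was 0.13 log2, narrower than the range within either group (0.57 in Young and 0.80 in Old). The means were 7.12 ± 0.22 and 7.88 ± 0.32 log2 (SD, n = 5). Old was thus higher by 0.76 log2 (SE 0.17), or 1.69-fold. Against the Young mean, single Old arrays ran from 1.36-fold (Old 5) to 2.37-fold (Old 2). Without Old 2 the difference was 0.64, and without Young 1 or Old 5 it was 0.84.

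Efemp1 differed less, and its groups overlapped through 1 array of each age. The Young arrays read 7.06, 7.08, 6.99, 7.0 and 7.45 log2. The Old arrays read 7.79, 7.59, 7.57, 7.72 and 7.43 log2. Young 5 stood 0.0185 log2 above Old 5, while the other 4 Young arrays lay within 0.0971 log2 of each other and below every Old array. The means were 7.11 ± 0.19 and 7.62 ± 0.14 log2 (SD, n = 5). Old was higher by 0.51 log2 (SE 0.11), or 1.42-fold. Without Young 5 the groups did not overlap and the difference was 0.59; without Old 5 they did not overlap either, at 0.56.

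Ccn1 had the clearest gap between the groups. The Young arrays read 8.13, 8.07, 7.71, 8.08 and 8.19 log2. The Old arrays read 8.77, 8.45, 8.56, 8.78 and 8.43 log2. Every Old array was above every Young array by at least 0.24 log2, and Young 3 was the low array of its group. The means were 8.04 ± 0.19 and 8.60 ± 0.17 log2 (SD, n = 5). Old was higher by 0.56 log2 (SE 0.11), or 1.48-fold. Without Young 3 the difference was 0.48, and the groups stayed apart whichever single array was left out, as they did for Fbln5.

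**Figure D1:**
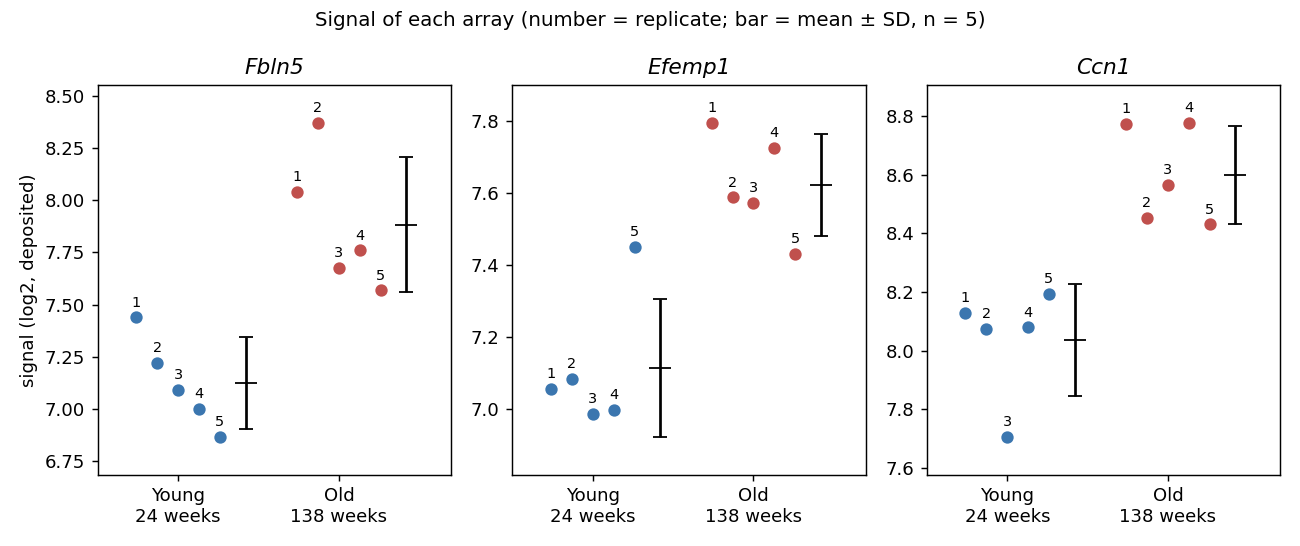
Deposited log2 signal of Fbln5, Efemp1 and Ccn1 on the vertical axes for the 5 Young (blue, 24 weeks) and 5 Old (red, 138 weeks) arrays, numbered by replicate, with the mean ± SD (n = 5) at the right of each group. Fbln5 and Ccn1 do not overlap between ages, and for Efemp1 Young 5 (7.45) lies just above Old 5 (7.43).

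Old and Young did not overlap for 2 of the 3 members, where 20.7% of varying genes and 0.836% of all genes had every Old value above every Young value. In a limma fit over all 19505 genes, 0 of the 3 members passed an adjusted p of 0.05, where 0.22% of genes did. An unadjusted p under 0.05 was found for 3 of 3 members and for 1331 of the 19505 genes. In the same fit limited to the 276 varying genes, 3 of 3 passed, where 35.9% of varying genes passed in either direction and 24.6% as higher in Old. Over all genes the count of members stayed at 0 with a trended robust prior and with an unmoderated test. It was 1 (Efemp1) without Young 5, where 31 genes were called higher and 4 lower over all genes. With each array centred on its median it was 1 (Ccn1), where 47 genes were higher and 8 lower. It was 3 with quantile normalization, where 154 genes were higher and 6464 lower. The members were chosen on this contrast, so nothing is read from these counts. By size, the differences of Fbln5, Ccn1 and Efemp1 were the 9th, 16th and 18th highest among the 276 varying genes.

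**Figure D2:**
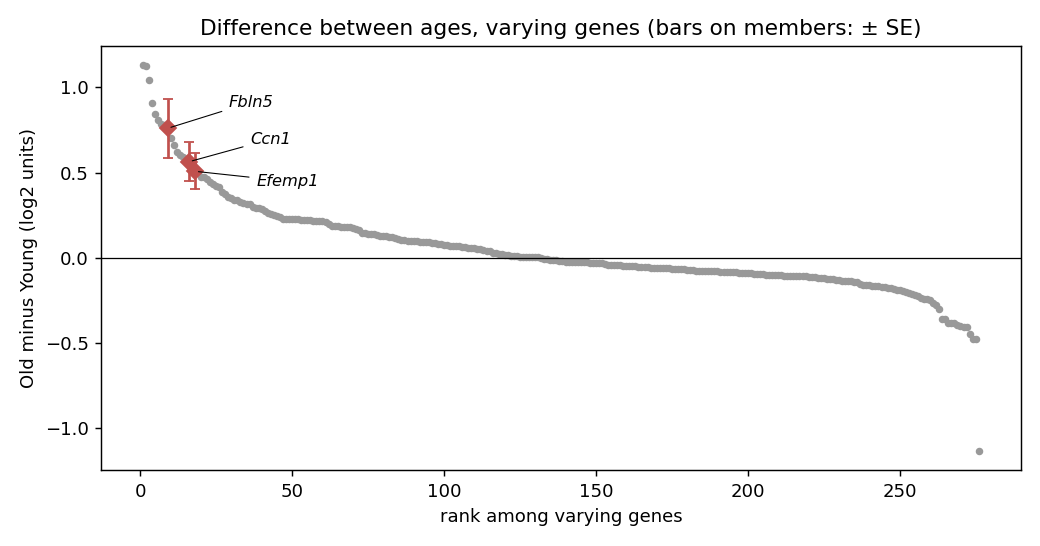
Old minus Young difference (log2 units, vertical axis) of the 276 varying genes in order of rank (horizontal axis), with the 3 members as red diamonds and bars of ± SE. Fbln5 (0.76), Ccn1 (0.56) and Efemp1 (0.51) sit among the highest values of the curve, as their choice implies.

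Within an age the 3 members lay on the same side of their group means in 4 of 10 arrays. Old 1 was above its group mean for all 3 genes. Young 3, Old 3 and Old 5 were below it for all 3, and the other 6 arrays were split. Efemp1 and Ccn1 lay on the same side of their group mean in 7 of 10 arrays, Fbln5 and Ccn1 in 6, and Fbln5 and Efemp1, the 2 fibulins, in 5. In the Old group Efemp1 and Ccn1 were on the same side in 5 of 5 arrays, and in the Young group in 2 of 5.

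The Old array with the most Fbln5, Old 2, also had the most of each varying endothelial transcript. Of 19 listed endothelial markers 17 were measured and 4 varied: Slc2a1 (the glucose transporter of the blood-brain barrier), Abcb1a (its drug efflux pump), Ly6c1 and Vwf (von Willebrand factor). Old 2 had the highest value of the 10 arrays for all 4, as for Fbln5, with Vwf at 7.04 log2 where the other 9 arrays had 6.29 to 6.48. That place was not particular to endothelial transcripts. Among genes named below, Old 2 was also highest for C1qb, Psat1, Gstm1 and Dcn, though not for others such as Gfap and Fos. The mean of the 4 markers was 8.86 log2 in Old 2, 8.57 in Old 1, 8.54 in Old 4, 8.53 in Old 3 and 8.47 in Old 5, the same order as Fbln5, a likeness looked at after the values were seen. None of the 4 markers had that order by itself: outside Old 2, Vwf was lowest in Old 1 (6.42), the array with the next most Fbln5, and Ly6c1 was higher in Old 3 (9.21) and Old 4 (9.17) than in Old 1 (9.15). In Young it ran from 8.44 to 8.51, highest in Young 3, and did not follow the order of Fbln5, which was highest in Young 1. The signal summed over all 17 measured markers, on a linear scale, was 4221 to 4479 in Young and 4251 to 4781 in Old. These are sums in which the 4 varying markers alone could move. Between ages, Abcb1a was higher by 0.18 (SE 0.055). Its limma adjusted p was 0.46 in the fit to all genes; that in the varying genes was 0.0241. With arrays left out, that call was lost without Young 1 (0.0581), Young 3 (0.0502), Old 1 (0.0534) or both Young 3 and Young 5 (0.0548). Vwf differed by 0.22 (SE 0.12), Ly6c1 by 0.12 (SE 0.099) and Slc2a1 by -0.022 (SE 0.058), and none of these passed in either fit; the sign of Slc2a1 turned without Young 3 (0.0057). Without Old 2 the difference was 0.10 for Vwf and 0.043 for Ly6c1, and without Old 5 that of Ly6c1 was 0.18. Among 8 measured markers of arterial endothelium and 12 of mural cells, 0 varied. The part of vessel content in the Fbln5 values was not tested.

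The Young array with the most Efemp1 was the array that stood apart for transcripts of choroid plexus and for Igf2. Of 11 measured choroid plexus markers 8 varied, and all 8 were highest in Young 5, with a mean of 8.34 log2 where the other 9 arrays had 6.47 to 6.62. Summed over the 11 markers on a linear scale, Young ran from 1053 to 7557 and Old from 1047 to 1150. Young 5 also had the highest value of the 10 arrays for Igf2 (9.33), a growth factor of leptomeninges and choroid plexus, and for Lamb1 (6.32), a laminin chain of basement membranes. For Dcn, the collagen-binding proteoglycan decorin, Young 5 was the highest Young array at 7.89 log2. Its part in the Efemp1 values was not tested; without it the difference of Efemp1 was 0.59 in place of 0.51.

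Of 13 measured markers of leptomeningeal fibroblasts, the collagen-making cells of the brain's coverings, Dcn and Igf2 varied. Mean Dcn signal was 7.60 ± 0.19 log2 at 24 weeks and 7.82 ± 0.14 log2 at 138 weeks (SD, n = 5), which differ by 0.23 (SE 0.11). Igf2 differed by -0.36 (SE 0.16; -0.21 without Young 5), with all Old values (8.28 to 8.45) below all Young values (8.54 to 9.33). Neither passed with limma. Dcn had an adjusted p of 0.728 with all genes fitted and 0.0952 with the varying genes, and Igf2 had 0.701 and 0.0767. Without Young 5 both passed among the varying genes (limma adjusted p = 0.0157 for Dcn, then at 0.30, and 0.00632 for Igf2). Dcn also passed there without Old 3 (0.0363), and both did without Young 3 and Young 5 (0.0477 and 0.0167). Their defining collagens Col1a1, Col1a2 and Col3a1 were collapsed. The summed signal of the 13 markers was 2425 to 2760 in Young and 2380 to 2470 in Old, sums in which Dcn and Igf2 alone could move, with means that differ in opposite directions. The part of leptomeningeal content in the Efemp1 values was not tested.

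Ccn1 belongs to the immediate early genes, which cells switch on within minutes of a stimulus. Most of the varying genes of that group were highest in Old 4 and lowest in Young 3, as Ccn1 was. Of 38 measured genes of that list other than Ccn1, 6 varied (Fos, Egr1, Nr4a1, Nr4a3, Dusp1 and Sgk1), and all 6 had the higher mean in Old, where 47.5% of varying genes did. Over all genes 0 of the 38 rose and 0 fell in limma. In the varying genes 2 of the 6 rose and 0 fell, where 24.6% of all varying genes rose. Fos, a subunit of the AP-1 transcription factor, rose by 0.34 (SE 0.10) in the varying genes (limma adjusted p = 0.0202; 0.453 over all genes), and kept that call whichever array was left out. The nuclear receptor gene Nr4a1 rose by 0.19 (SE 0.068), with a limma adjusted p of 0.0479 among the varying genes and of 0.637 among all genes. It kept that call without Old 2 but lost it without each of the other 9 arrays (limma adjusted p from 0.0571 to 0.0964), and without both Young 3 and Young 5 (0.128). The transcription factor gene Egr1 differed by 0.24 (SE 0.11), Nr4a3 by 0.23 (SE 0.13), the kinase gene Sgk1 by 0.21 (SE 0.15) and the phosphatase gene Dusp1 by 0.083 (SE 0.047), and none of these passed in either fit. The difference of Nr4a3 was 0.14 without Young 3, that of Sgk1 was 0.14 without Young 2, and that of Dusp1 was 0.044 without Old 4. Without Old 2, Egr1 passed among the varying genes (limma adjusted p = 0.0357). The median over the 6 was 0.22, against -0.019 over all varying genes. The other 32 cannot show a change, since they did not vary.

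Single arrays stood in a like place for Ccn1 and these genes. Old 4 had the highest value of the 10 arrays for Ccn1 (8.78), Fos (8.71), Egr1 (9.92), Nr4a1 (7.91), Nr4a3 (8.50) and Dusp1 (10.34). Young 3 had the lowest for Ccn1 (7.71), Fos (7.88), Egr1 (9.18), Nr4a1 (7.48) and Nr4a3 (7.73). Sgk1 did not share these places, being highest in Old 3 and lowest in Young 2. Young 3 also carried the liver transcripts Alb (6.87, next array 6.34) and Mup2 (7.35, next array 6.39). The part of such transcripts in the Ccn1 values was not tested. Without Young 3 the Ccn1 difference was 0.48 and that of Fos 0.28.

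**Figure D3:**
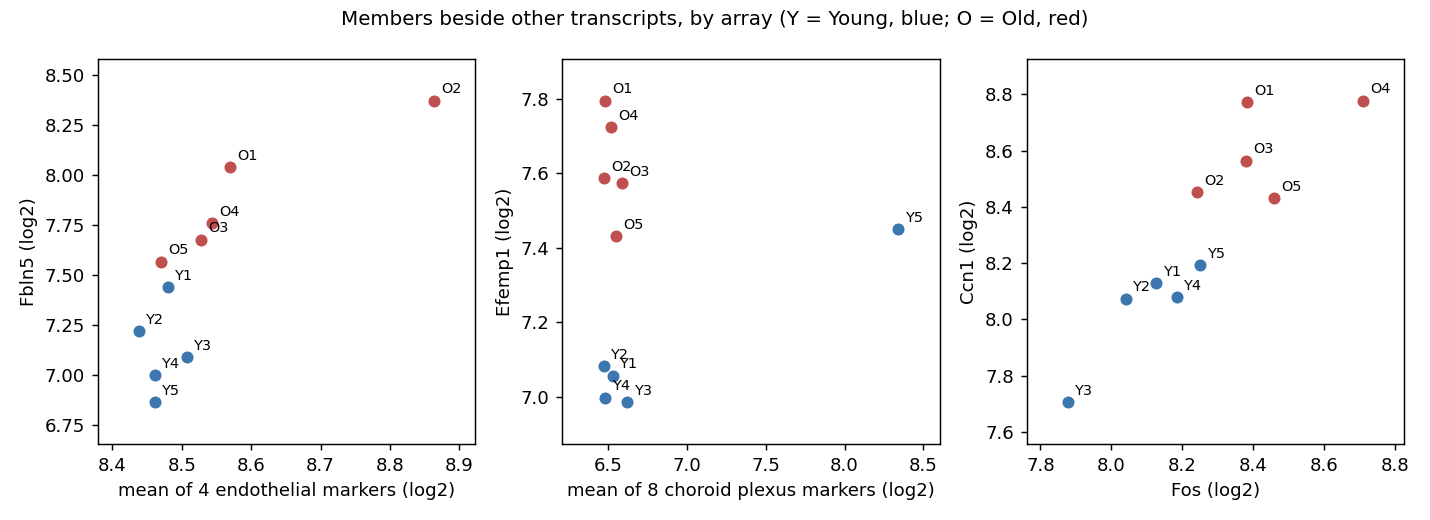
Log2 signal of Fbln5 against the mean of 4 varying endothelial markers, of Efemp1 against the mean of 8 varying choroid plexus markers, and of Ccn1 against Fos, 1 point per array (Y, blue, Young; O, red, Old). Old 2 is highest for Fbln5 and the endothelial mean (8.86), Young 5 stands apart for choroid plexus (8.34), and Young 3 and Old 4 hold the lowest and highest places for both Ccn1 and Fos.

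The relatives of the 3 members could not be compared between ages. Of the other fibulins Fbln1, Fbln2, Fbln7 and Hmcn1 were measured, and all 4 were collapsed. The other CCN genes, Ccn2 to Ccn6, were measured and collapsed too (5 of 5). Of 28 measured targets and regulators of YAP and TEAD other than Ccn1, 0 varied, so Ccn1 was the member of that list with a readable difference. The same held for partners, receptors and modifiers. Elastic fibre and microfibril genes such as Eln (elastin) and Lox (the enzyme that cross-links it) had 0 varying of 19 measured. Binding partners of fibulins, among them Timp3, had 0 of 7. Integrins and other receptors had 0 of 23, matrix proteases and their inhibitors 0 of 23, and TGF-beta signalling genes, which induce Fbln5 in other cells, 0 of 20.

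Over all lists of matrix and signalling genes together, 225 of 238 listed genes other than the members were measured and 9 (4%) varied, beside 1.42% of all genes. Without the immediate early genes, 3 of 187 measured genes (1.6%) varied. In limma over all genes 0 of the 225 rose and 0 fell. Of the 225, 23 had an unadjusted p under 0.05, beside 1331 of all 19505 genes. Genes that did not vary are among those 23, and no such gene of the lists differed by more than 0.0025 log2. Nothing is therefore read from that count. The median difference of the 225 was 1.99e-07 log2 (-8.74e-08 over all genes), which reflects the collapsed values. In the varying genes 2 rose (Fos and Nr4a1) and 1 fell, or 33.3% of 9, near the 35.9% of all varying genes. The gene that fell was Ncan, which encodes the brain proteoglycan neurocan of the hyaluronan matrix. It fell by 0.38 (SE 0.071), with no overlap between ages. Its limma adjusted p was 0.0017 when the varying genes were fitted and 0.0977 when all genes were. Neurocan was the 1 varying gene of 17 measured in its list. Lamb1 was the 1 varying gene of 22 measured basement membrane genes and differed by -0.07 (SE 0.073; -0.0078 without Young 5 and -0.11 without Young 3), and Dcn that of 26 interstitial matrix genes.

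**Figure D4:**
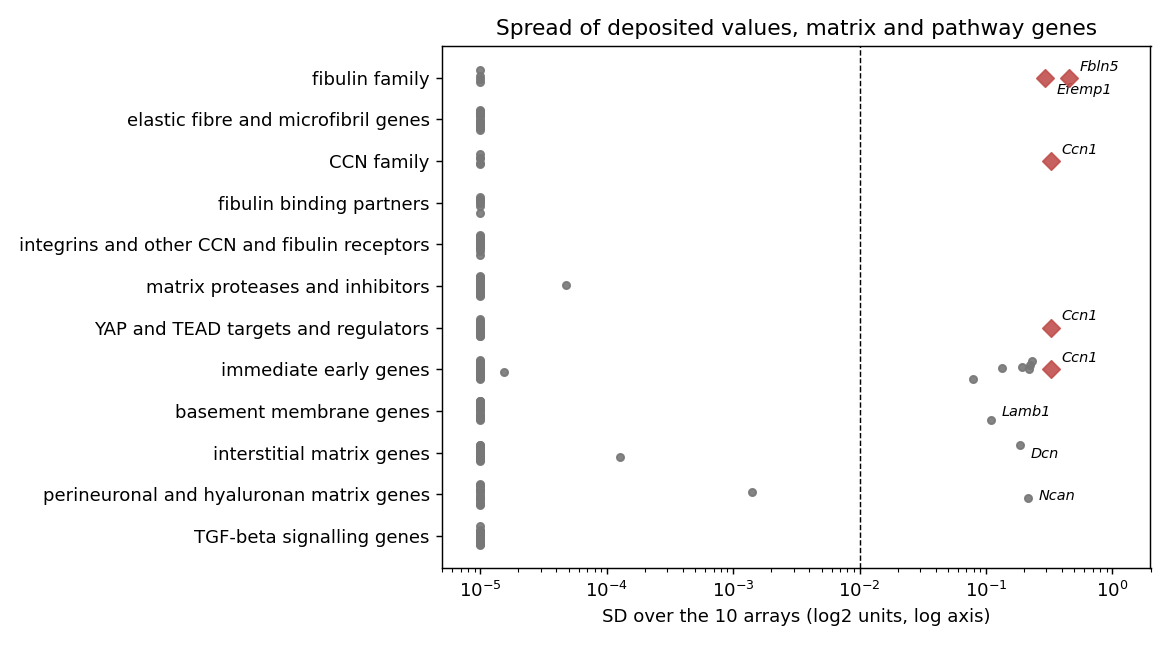
SD over the 10 arrays of each measured gene (log2 units, log axis) in the 12 lists of matrix and signalling genes, 1 point per gene, members as red diamonds and the line at 0.01. Nearly all listed genes lie at 1e-05, and apart from the members those right of the line are Lamb1, Dcn, Ncan and 6 immediate early genes.

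The genes whose course over the 10 arrays was most like that of each member were sought among the 245 other genes with an SD of at least 0.05 log2. Likeness was the mean absolute difference over the 10 arrays after each gene was centred and divided by its SD; a small value means a like course, and a shared difference between ages makes it small. Fbln5 was nearest to C1qb, a chain of complement C1q (0.245), Psat1, an enzyme of serine synthesis (0.259), and Gstm1, a glutathione transferase (0.264), where the median over candidates was 1.12. Efemp1 was nearest to Gfap, the intermediate filament of astrocytes (0.283), Txnip, an inhibitor of thioredoxin (0.29), and Ly86, a myeloid receptor partner (0.293). Ccn1 was nearest to Abca1, a cholesterol exporter (0.28), Efemp1 (0.325) and Gm15319 (0.369). Efemp1 was thus the 2nd nearest gene to Ccn1 and Ccn1 the 5th nearest to Efemp1, while Efemp1 was the 47th nearest to Fbln5. Of the 8 neighbours that are not members, 7 had all Old values above all Young values, where 20.7% of varying genes did, and Txnip overlapped. Likeness to members that were chosen as higher in Old favours such genes, so nothing is read from this count.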

How the data were processed

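RNA from the hypothalamus of 5 Young and 5 Old samples was measured on Clariom S Mouse arrays from 100 ng of total RNA each, per the labels' protocols. The deposited log2 values were used as the authors gave them, summarised per probe set; their background correction, normalization and log base are not stated. Samples were grouped by title. Gene symbols came from GEO's annotation of the platform (19572 with 1 symbol, 0 with several, 2634 unnamed here). Identifiers were matched to RefSeq, and the probe set of highest mean was kept per gene. The number of arrays limits the precision.

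Old was compared with Young by limma (version 3.58.1, R 4.3.3; lmFit and eBayes, 2-sided, Benjamini-Hochberg, threshold 0.05) over all 19505 genes and over the 276 varying genes. Over all genes the collapsed values set the spread towards which limma moves each gene. SEs are those of a difference of 2 means with pooled SD. The procedure was tested on simulated data. "Rose" and "fell" mean an adjusted p under 0.05 in the fit named.

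Named genes were the members, the varying genes of the closest matrix, receptor, protease, TGF-beta, vessel and meningeal lists, the 4 largest differences in every other pathway list, and the 3 nearest genes to each member. Nr4a1, Dusp1, Alb, Mup2, Sst and the collapsed genes were named outside that rule, after their values were seen. The members, lists and alternatives were chosen with earlier results of these data known. Alternatives covered normalization, centring, dim genes, probe sets, variance prior, genes fitted, threshold, the replicate number as a block, and arrays left out. Same-numbered samples did not deviate together, with correlations from -0.219 to 0.281, so the numbers were not taken as pairs.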

Additional observations from a re-analysis of the deposited data

Results flagged for a closer look

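In each group of 5 arrays the highest or lowest array was compared with its nearest neighbour for the 23 named genes. In 7 of 46 groups the gap exceeded 0.71 of the group's range, where chance gives about 1 in 20 for a single group not chosen by its spread. These genes were named by a filter on spread, which an outlying array widens, and several share an array. The count is therefore not set against that rate. Among the members, Ccn1 was low in Young 3 (7.71 log2, nearest value 8.07) and Efemp1 was high in Young 5 (7.45, nearest 7.08). Young 5 was also high for Igf2 (9.33, nearest 8.61) and for Gfap (9.13, nearest 8.90). Old 2, the array with the most Fbln5, was high for Vwf (7.04, nearest 6.48) and Slc2a1 (10.44, nearest 10.27). Dcn was low in Old 3 (7.58, nearest 7.85). Fbln5 had no such array in either group.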

How the results depend on the processing

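Under quantile normalization, median centring, the mean of all probe sets and each set of arrays left out, the differences of the 3 members stayed above 0 and within 1 SD of the values given. With single arrays left out they ran from 0.64 to 0.84 (Fbln5), 0.46 to 0.59 (Efemp1) and 0.48 to 0.61 (Ccn1). Counts over many genes moved more. Over all genes 37 were higher and 6 lower. Quantile normalization made them 154 and 6464. Fitting the varying genes alone gave 68 and 31, and the fit to genes with an SD of 0.05 or more gave 65 and 28. They were 10 and 1 with the replicate block, 22 and 2 without Young 3 and Young 5, and 21 and 2 at an adjusted p under 0.01. A trended robust prior gave 10 lower. Single arrays left out gave 25 to 37 higher and 4 to 9 lower. Of the matrix and signalling genes 0 were higher and 0 lower; quantile normalization gave 1 and 77, median centring 1 lower, and both fits to varying genes 2 higher and 1 lower. Single arrays left out gave 0 higher and 0 to 1 lower. In the varying genes, 68 higher and 31 lower became 57 to 64 and 20 to 37 with single arrays left out, 17 lower without Young 3 and Young 5, and 12 lower at the stricter threshold. Same-numbered arrays were not taken as pairs, since 1 of 10 arrays correlated best with its own number. Such correlations cannot show how the samples were handled. With the replicate block the call of Abcb1a among the varying genes was lost (limma adjusted p = 0.0761). With single arrays left out Slc2a1 ran from -0.064 to 0.0057, the last without Young 3, and it was also above 0 without Young 3 and Young 5 together (0.031). The cause of these changes was not tested, except that the stricter threshold and the smaller sets of genes or arrays act by construction.

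No background call was used, so signal over background was not assessed. How far the differences of varying genes were shrunk before deposit is unknown, so each fold describes the deposited values.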
